A study of Mus musculus with 6 samples.

Results

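The genes described here are 10 genes of estrogen receptor signalling. They comprise the receptors Esr1, Esr2 and Gper1, the related orphan receptor Esrra, the cofactors Nrip1, Ncoa3 and Ncor1, and the target genes Pgr, Greb1 and Igfbp4. They were chosen by name because tamoxifen, the drug given in the study, binds estrogen receptors and could act on the cells directly. A gene was taken when a probe set carried its symbol as the only annotated symbol, which found 9 of the 10 among 19938 genes, each on 1 probe set. Ncor1 was not analysed here. A filter at the 30th percentile of genes, a mean log2 intensity of 6.70, was passed by 8 members, and Pgr lay below it.

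The leukemias were T cell acute lymphoblastic leukemias (T-ALL) of the mouse, raised by retroviral delivery of active Notch (Notch-IC) to blood progenitors with a Cre-ER transgene and the Zfx fl/y allele, which all 6 arrays share. Lines 14843, 14844 and 14846 were independent leukemias, and each was passed to sublethally irradiated second hosts that received Vehicle (genotype given as ZFX flox) or Tamoxifen (given as ZFX null). Dosing began on day 10 after transplant at 5 mg a day by gavage for 3 days, and GFP+ cells were recovered by sorting 48 h later than the final dose. Each group held 3 arrays, 1 for each line. The hosts' ages, the number of hosts behind an array and the promoter of the transgene were not stated in the texts available here. There was no Tamoxifen group without Cre-ER or without the Zfx allele, so the drug, Cre activity and loss of Zfx cannot be told apart.

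Estrogen receptors alpha (Esr1) and beta (Esr2) are ligand-activated transcription factors that bind palindromic response elements in DNA, recruit coactivators such as Ncoa3 when an agonist is bound, and recruit corepressors such as Ncor1 when an antagonist is bound. Tamoxifen is a selective modulator: its active metabolites act as antagonists in breast tissue and as partial agonists in some other tissues. It is also an agonist of Gper1, a membrane receptor for estrogen. Estrogen is known to shrink the thymus and to restrain early lymphocyte development. Cre-ER is Cre recombinase joined to the ligand-binding part of an estrogen receptor, which lets tamoxifen bring it into the nucleus. Whether the Esr1 probes can read that part of the transgene was not tested.

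Over all probe sets the arrays correlated at 0.991 to 0.996. The T lineage label was borne out by its markers, since the 10 T lineage genes found of 12 listed, among them Cd3e and Thy1, had mean log2 intensities from 11.2 to 13.4. Zfx itself, on 1 probe set, was at 10.98, 10.90 and 10.72 log2 intensity with Vehicle and 10.96, 10.98 and 10.86 with Tamoxifen in lines 14843, 14844 and 14846. Its groups overlapped, and where its probes lie relative to the deleted part was not known here, so it does not check the labels.

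Promoters are printed for the 3 members that were higher with Tamoxifen in every line, and for Ncoa6, the coactivator gene that passed the test, so that the letters an estrogen receptor is known to bind can be looked for. They come from RefSeq on build GRCm38.p6 and run from 250 bases before to 50 bases after an annotated start. Entries were held for 9 of the 10 members. Capitals mark the half-site GGTCA, which makes up each arm of the full element, and the GC box GGGCGG, bound by Sp1 family factors to which estrogen receptors can tether. Both strands were searched.
Igfbp4, chr11:99040994-99041293, plus strand: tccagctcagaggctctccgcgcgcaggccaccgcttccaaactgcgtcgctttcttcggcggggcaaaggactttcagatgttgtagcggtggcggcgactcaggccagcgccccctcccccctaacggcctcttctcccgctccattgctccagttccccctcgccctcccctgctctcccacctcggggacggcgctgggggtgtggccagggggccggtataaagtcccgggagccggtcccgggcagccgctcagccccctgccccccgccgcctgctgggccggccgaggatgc
Nrip1, first start, chr16:76373778-76374077, minus strand: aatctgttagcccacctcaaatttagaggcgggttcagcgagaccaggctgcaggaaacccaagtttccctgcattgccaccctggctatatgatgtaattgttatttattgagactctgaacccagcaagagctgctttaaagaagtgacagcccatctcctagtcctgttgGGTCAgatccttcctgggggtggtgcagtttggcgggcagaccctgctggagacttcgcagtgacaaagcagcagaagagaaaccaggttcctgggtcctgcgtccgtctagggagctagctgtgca
Nrip1, second start, chr16:76373000-76373299, minus strand: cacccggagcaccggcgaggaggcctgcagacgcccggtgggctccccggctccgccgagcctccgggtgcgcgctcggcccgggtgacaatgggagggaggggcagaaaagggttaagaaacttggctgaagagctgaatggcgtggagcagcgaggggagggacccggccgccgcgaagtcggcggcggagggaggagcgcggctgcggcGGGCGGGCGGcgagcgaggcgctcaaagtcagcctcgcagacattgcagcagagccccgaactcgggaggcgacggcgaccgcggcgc
Gper1, chr5:139422929-139423228, plus strand: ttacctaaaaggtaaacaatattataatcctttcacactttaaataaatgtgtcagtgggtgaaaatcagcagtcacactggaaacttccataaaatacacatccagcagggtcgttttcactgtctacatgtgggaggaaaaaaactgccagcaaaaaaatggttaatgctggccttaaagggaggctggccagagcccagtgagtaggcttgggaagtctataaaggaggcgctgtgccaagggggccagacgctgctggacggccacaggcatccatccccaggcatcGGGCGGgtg
Ncoa6, chr2:155440734-155441033, minus strand: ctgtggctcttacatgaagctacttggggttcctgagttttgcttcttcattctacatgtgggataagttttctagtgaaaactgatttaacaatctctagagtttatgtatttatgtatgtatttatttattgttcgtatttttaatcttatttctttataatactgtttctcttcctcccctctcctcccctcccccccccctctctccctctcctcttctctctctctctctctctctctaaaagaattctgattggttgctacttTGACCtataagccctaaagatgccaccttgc

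None of these 5 windows held the full element GGTCANNNTGACC, which 0.07% of all 32851 promoter entries held. The half-site occurred once in the first Nrip1 window and once in the Ncoa6 window, on the reverse strand there, and 40.5% of all entries hold at least 1. GC boxes numbered 2, overlapping, in the second Nrip1 window and 1 in the Gper1 window, against 35.7% of all entries with at least 1. The Igfbp4 window, whose gene had the largest difference between treatments, held neither. AGGCCT, the core letters of the motif known for Zfx, occurred once, in the second Nrip1 window, and 10.3% of entries hold it. These matches describe letters within short windows and show no binding.

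No member passed the test between treatments. By limma with line as a block, 0 of the 8 tested members had an adjusted p under 0.05, while 6.23% of all 13956 tested genes did. At an unadjusted p under 0.05 there were 4 members, Igfbp4, Nrip1, Gper1 and Ncoa3, against 23.8% of all genes. That count fell to 1 without line 14843, and to 2 without line 14844 or when the arrays were quantile normalized again. The same 4 had groups that did not overlap, against 23.7% of all genes, and moved one way in each line, 3 of them higher and Ncoa3 lower. The median log2 difference, Tamoxifen minus Vehicle, was 0.05 over the 8 members and 0.03 over all tested genes. In sorted bulk cells, fewer cells of a type and less RNA per cell cannot be told apart.

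**Figure D1:**
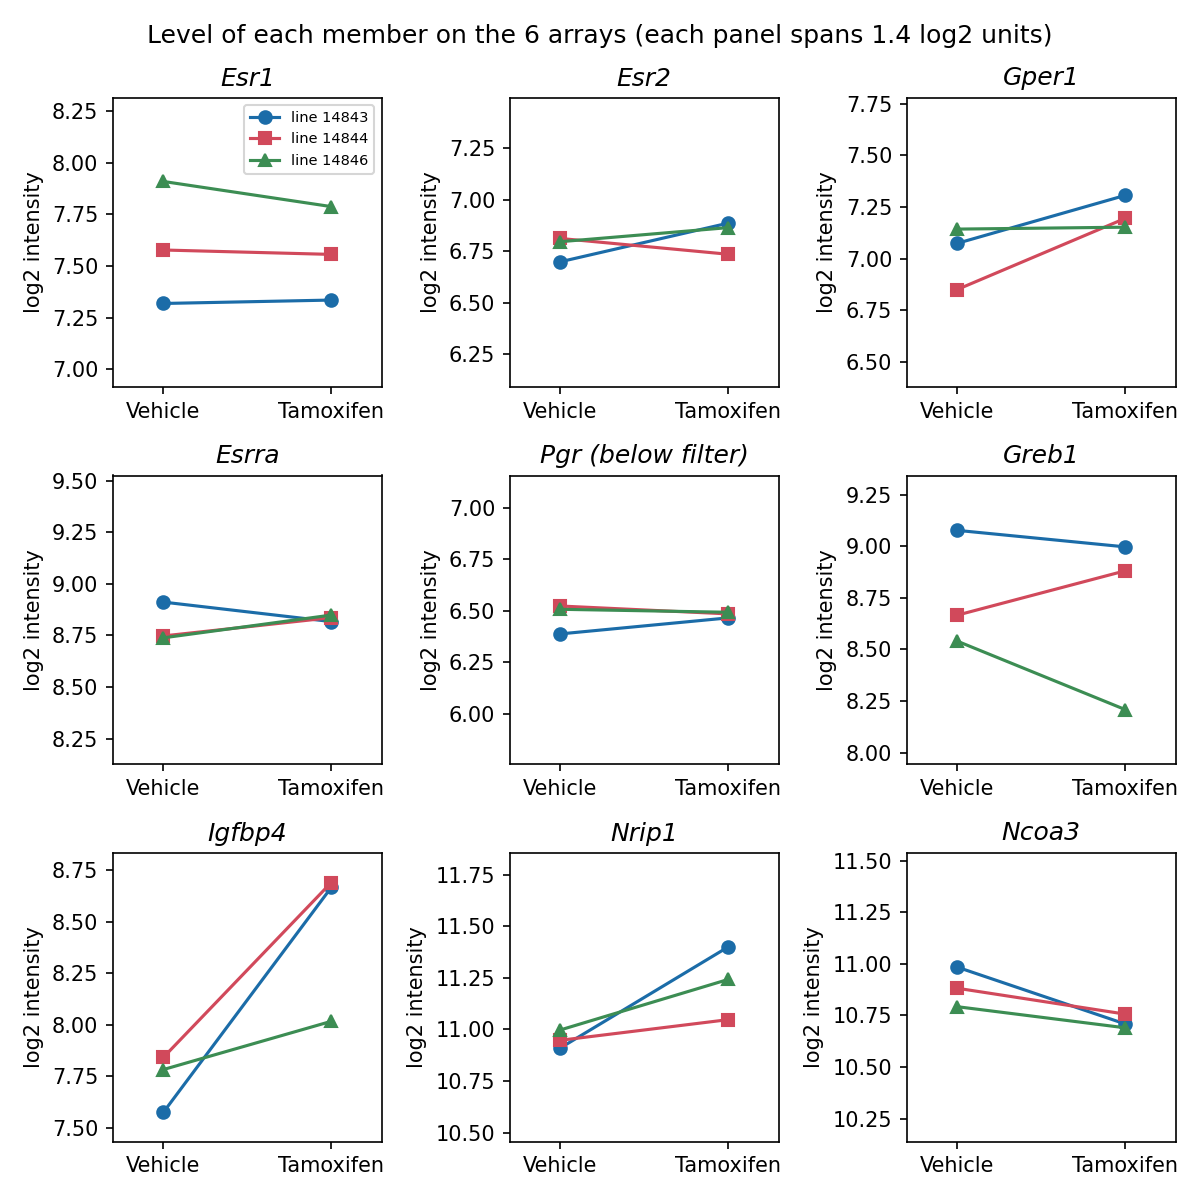
Log2 intensity (vertical axis) of the 9 members found on each array, with the Vehicle and Tamoxifen arrays of a line joined and every panel spanning the same range. Igfbp4 is higher with Tamoxifen in each line, least in line 14846, while the lines of Esr1 stay apart and nearly level.

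Among the receptors, Esr1 had levels set apart by leukemia, while its treatment groups overlapped. Its log2 intensity with Vehicle was 7.32, 7.58 and 7.91 in lines 14843, 14844 and 14846, and with Tamoxifen 7.33, 7.56 and 7.79. Both arrays of a line lay close together, in the same order of lines under either treatment, and each Tamoxifen array lay close to its line's Vehicle array. The fitted treatment difference was -0.04 ± 0.05 (SE, n = 3 lines), with a 95% interval from -0.18 to 0.09 and a limma adjusted p of 0.67.

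Esr2 was close to the filter in every array. It was at 6.70, 6.81 and 6.80 log2 intensity with Vehicle and at 6.89, 6.74 and 6.86 with Tamoxifen. The groups overlapped, and line 14844 moved against the other lines. The difference of 0.06 ± 0.07 (SE) had a 95% interval from -0.11 to 0.23 and a limma adjusted p of 0.62.

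Gper1, the G protein-coupled receptor of the cell membrane, was at 7.07, 6.85 and 7.14 log2 intensity with Vehicle and at 7.31, 7.19 and 7.15 with Tamoxifen. All Tamoxifen arrays lay above all Vehicle arrays, but by 0.01 in line 14846 against 0.23 and 0.34 in lines 14843 and 14844. The difference was 0.20 ± 0.08 (SE, n = 3 lines), with a 95% interval from 0.0027 to 0.39, and it missed the threshold at a limma adjusted p of 0.21.

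Esrra binds DNA elements close to those of Esr1 but no estrogen, and it drives mitochondrial genes. Its log2 intensity was 8.91, 8.75 and 8.74 with Vehicle and 8.82, 8.84 and 8.85 with Tamoxifen. Tamoxifen arrays lay within the Vehicle range, and line 14843 moved down while the others moved up. The difference was 0.03 ± 0.06 (SE) and its adjusted p by limma 0.76.

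Igfbp4 had the largest difference of the members. It encodes a secreted protein that binds insulin-like growth factors and holds them from their receptor, and estrogen raises it in breast cancer cells. Its log2 intensity was 7.58, 7.84 and 7.78 with Vehicle and 8.67, 8.69 and 8.02 with Tamoxifen in lines 14843, 14844 and 14846. Every Tamoxifen array lay above every Vehicle array, but line 14846 moved far less than the other lines, by 0.23 against 1.09 and 0.85.

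Mean levels of Igfbp4 were 7.73 ± 0.14 with Vehicle and 8.46 ± 0.38 with Tamoxifen (SD, n = 3 each), a 1.65-fold higher level. The difference of 0.72 ± 0.16 (SE) had a 95% interval from 0.32 to 1.13 and a limma adjusted p of 0.067, just short of the threshold. Of all 13956 tested genes, 20 had a difference at least as high, or 0.143%, Igfbp4 itself included. In either direction, 176 had a difference at least as large. By its limma p, Igfbp4 ranked 1101. Without line 14846 it passed, at 0.97 ± 0.08 and an adjusted p of 0.012, and without lines 14843 or 14844 the adjusted p was 0.13 and 0.27. It also passed, at 0.78 ± 0.14 and 0.027, when arrays were centred on the median of tested genes, a setting added after the data were seen. Over all 11 alternatives the adjusted p ran from 0.012 to 0.27 and the difference from 0.54 to 0.97.

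Cells that make much Igfbp4 include stromal cells, which a sort for GFP+ leukemic cells serves to remove, and their markers were set beside it. Of 10 stromal and endothelial markers, 6 passed the filter and 0 passed the test, while Dcn, Kdr, Tek and Cxcl12 were below the filter. Their mean log2 intensity ran from 8.02 to 8.11 over Vehicle arrays and from 8.02 to 8.16 over Tamoxifen arrays. Tamoxifen minus Vehicle for that mean was 0.10, 0.05 and -0.0014 in lines 14843, 14844 and 14846. That order of lines rests on Pdgfrb, a growth factor receptor of mesenchymal cells, whose differences were 0.61, 0.23 and -0.54. Pdgfrb had the highest level of the 10, a mean of 12.38 with Vehicle and 12.48 with Tamoxifen. That is within the 11.2 to 13.4 of the T lineage genes, so it need not mark stromal cells here. Without Pdgfrb, a reading added after the data were seen, the mean of the other 9 markers differed by 0.04, 0.03 and 0.06. Single markers among the 9 varied. Pecam1 differed by 0.16, 0.17 and -0.02 in lines 14843, 14844 and 14846, and Col1a2 by -0.13, -0.17 and 0.19. The part of these cells in the Igfbp4 result was not tested.

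Among the members named as target genes, Greb1 and Pgr did not move one way in every line as Igfbp4 did. Greb1, an early estrogen-induced gene of breast cancer cells that serves as a receptor cofactor, was at 9.077, 8.666 and 8.540 log2 intensity with Vehicle and at 8.997, 8.881 and 8.209 with Tamoxifen. The within-line differences were 0.21 in line 14844, -0.33 in line 14846 and -0.08 in line 14843, and the groups overlapped. The treatment difference was -0.07 ± 0.11 (SE), its 95% interval ran from -0.33 to 0.20, and its limma adjusted p was 0.74.

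Pgr, the progesterone receptor and a classic estrogen-induced gene, was dim on every array. Its log2 intensity lay between 6.39 and 6.52 with Vehicle and between 6.47 and 6.49 with Tamoxifen. The groups overlapped, and the difference was 0.01 ± 0.05 (SE) in a limma fit without the filter, with an adjusted p of 0.94. A dim probe set of this kind can hide a change, so the value bounds the signal rather than the transcript.

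**Figure D2:**
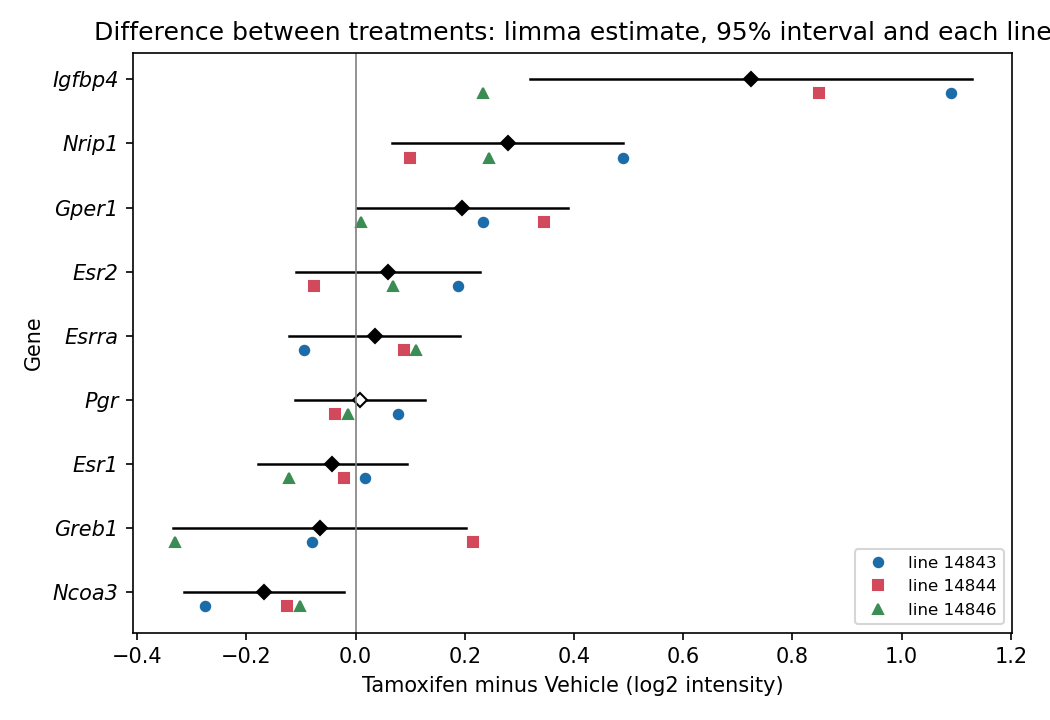
Difference between treatments (horizontal axis, log2 intensity) for each member: diamonds are limma estimates, bars 95% intervals, coloured symbols the lines, and the open diamond marks Pgr, below the filter. The intervals of Igfbp4, Nrip1, Gper1 and Ncoa3 leave out 0 before adjustment, and Igfbp4 lies farthest from it.

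The cofactors Nrip1 and Ncoa3 had values on opposite sides of 0. Nrip1, also called RIP140, is both an estrogen-induced gene and a corepressor that competes with coactivators for the receptor. It was at 10.91, 10.95 and 11.00 log2 intensity with Vehicle and at 11.40, 11.05 and 11.24 with Tamoxifen. The groups did not overlap, and line 14843 moved most, by 0.49, against 0.10 and 0.24 in lines 14844 and 14846. The difference was 0.28 ± 0.08 (SE, n = 3 lines), a 1.21-fold higher level, with a limma adjusted p of 0.13.

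Ncoa3, a p160 coactivator that is amplified in breast cancers, was the member with the lowest difference. It was at 10.98, 10.88 and 10.79 log2 intensity with Vehicle and at 10.71, 10.76 and 10.69 with Tamoxifen. All Tamoxifen arrays lay below all Vehicle arrays, although the lowest Vehicle array and the highest Tamoxifen array were only a few hundredths apart. The difference of -0.17 ± 0.06 (SE), 1.12-fold lower, gave an adjusted p of 0.17 by limma. Nrip1, Ncoa3 and Gper1 kept their direction and missed the threshold in every alternative in which each was tested, with lowest adjusted p-values of 0.069, 0.14 and 0.078.

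**Figure D3:**
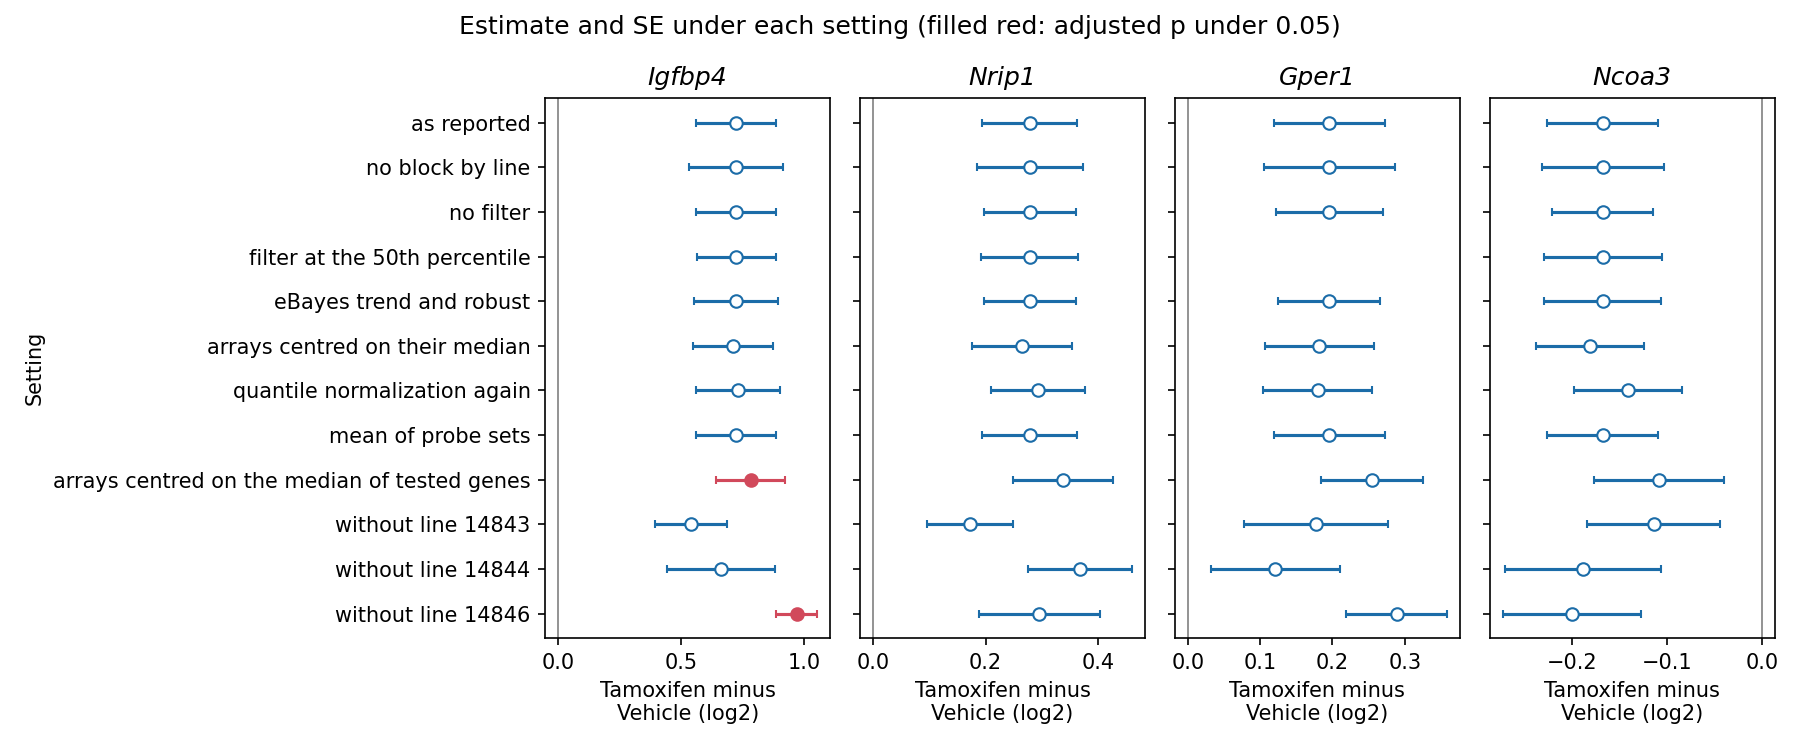
Difference between treatments with its SE (horizontal axes, log2 intensity) for the 4 members with an unadjusted p under 0.05, under each setting (vertical axis). Of these only Igfbp4 passes, without line 14846 and with arrays centred on the median of tested genes; Gper1 was not tested under the stricter filter.

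Further genes of the pathway were taken from lists by role. Of 10 steroid and related receptors, 8 were tested and 0 passed, with 1 at an unadjusted p under 0.05, against 23.8% of all tested genes. Their median was 0.06 and their values ran from -0.07 to 0.20. Besides Gper1, the smallest p was that of the mineralocorticoid receptor Nr3c2, at 0.11 ± 0.07 (SE) and an adjusted p by limma of 0.39.

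Coactivators held 1 change. Of 18 listed, 17 were tested, 0 rose and 1 fell, with a median of -0.11 against 0.03 over all tested genes, where 6.23% passed in either direction. At an unadjusted p under 0.05 by limma there were 5, against 23.8% of all tested genes. With arrays centred on the median of tested genes, values above and below 0 went from 6 and 11 to 8 and 9. The coactivator median was then -0.05, against 0.08 over all tested genes. Ncoa6, a coactivator of many nuclear receptors and a part of histone methyltransferase complexes, was at 11.09, 10.93 and 10.92 log2 intensity with Vehicle and at 10.39, 10.29 and 10.31 with Tamoxifen. The groups lay well apart and all lines moved by nearly the same amount, from -0.70 to -0.61. Ncoa6 fell 1.57-fold, with a difference of -0.65 ± 0.05 (SE) and adjusted p-values by limma of 0.0063, and 0.011 without the block. Without line 14844 its difference was -0.66 and its adjusted p 0.069, which ends the call.

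Carm1, an arginine methyltransferase recruited by p160 coactivators, came next at -0.32 ± 0.07 (SE), its adjusted p by limma being 0.064, and it passed with eBayes trend and robust moderation, at 0.049. Of the p160 family besides Ncoa3, Ncoa1 and Ncoa2 gave -0.13 ± 0.09 and -0.03 ± 0.05. Of 14 corepressors, 12 were tested and 0 passed, with 4 at an unadjusted p under 0.05, against 23.8% of all tested genes. Bcor, a corepressor that partners Bcl6, and Hdac3, the deacetylase of the Ncor1 complex, gave -0.28 ± 0.06 and -0.20 ± 0.06, with limma adjusted p-values of 0.067 and 0.12. These values were opposite in sign to that of Nrip1, which is in the same list.

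A broader list of 28 estrogen-induced genes held 19 tested genes, of which 0 passed, with 9 at an unadjusted p under 0.05, where 23.8% of all genes were, and a median of 0.06. The 9 became 4 without the block, and 4, 5 and 6 without lines 14843, 14844 and 14846. Positive values were seen for 13 and negative ones for 6. After Igfbp4 the smallest p was that of Ctsd, the lysosomal protease cathepsin D, at -0.20 ± 0.05 (SE) and a limma adjusted p of 0.090. The well-known breast cancer targets Tff1 and Ccnd1 gave 0.14 ± 0.05 and 0.19 ± 0.06, with adjusted p-values of 0.19 and 0.12. Without line 14846, Igfbp4 and Ramp3, a receptor activity-modifying protein, both passed, the latter at 0.51 ± 0.09 and an adjusted p of 0.044.

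The insulin-like growth factor list, in which Igfbp4 belongs, held 1 change. Of 13 tested genes of 18, 1 rose and 0 fell, against 6.23% of all tested genes that passed in either direction, and the median was 0.05. Stc1, a secreted glycoprotein that inhibits Pappa, the protease that cleaves Igfbp4, was at 7.45, 7.79 and 7.92 log2 intensity with Vehicle and at 7.80, 8.41 and 8.23 with Tamoxifen. The groups overlapped, while within lines it was higher by 0.35, 0.62 and 0.32. Stc1 rose by 0.43 ± 0.08 (SE), at 0.038 by limma after adjustment. The call was lost without the block, at 0.33, without line 14843, at 0.068, and without line 14844, at 0.15. Pappa gave 0.06 ± 0.05, and of the other binding proteins Igfbp2, Igfbp3, Igfbp6 and Igfbp7 gave values from 0.04 to 0.13, none past the threshold. The growth factors Igf1 and Igf2 gave 0.05 ± 0.05 and -0.02 ± 0.05, and the receptor Igf1r 0.14 ± 0.08.

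Chaperones that hold steroid receptors ready for ligand had values below 0. Of 10 listed, 9 were tested and 0 passed by limma, with 4 at an unadjusted p under 0.05, against 23.8% of all tested genes. The median was -0.14 and all 9 fitted differences lay below 0, as did 41.4% of all tested genes. Within line 14846, however, most of the 9 were higher with Tamoxifen, by up to 0.18. Leaving out 1 line moved the median between -0.06 and -0.27 and the unadjusted count between 1, without line 14844, and 7, without line 14846. With arrays centred on the median of tested genes, 1 of the 9 lay above 0, as did 1 without line 14844. The phosphatase Ppp5c and the immunophilin Fkbp4, both partners of Hsp90, gave -0.27 ± 0.06 and -0.42 ± 0.11 (SE), with limma adjusted p-values of 0.065 and 0.093. Fkbp4 differed by -0.52 and -0.65 in lines 14843 and 14844 and by -0.10 in line 14846, and without line 14846 it passed, at -0.58 ± 0.07 and 0.021. Dnajb1, an Hsp40 protein named here after its values were seen, also passed without line 14846, at -0.63 ± 0.08 and 0.020. Ppp5c passed when arrays were centred on their median over all probe sets, at an adjusted p of 0.0496.

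Genes that make or inactivate estrogens, or that bind tamoxifen apart from its receptors, gave 0 calls by limma. Of 14 estrogen metabolism genes, 6 were tested, with 3 at an unadjusted p under 0.05, against 23.8% of all tested genes, and a median of -0.02. Hsd17b7, which reduces estrone and also acts in cholesterol synthesis, gave 0.68 ± 0.14 (SE) with an adjusted p of 0.059. Like Igfbp4 it was higher by more in lines 14843 and 14844, by 1.03 and 0.76, than in line 14846, by 0.26, and it passed without that line, at 0.90 ± 0.09 and 0.014. It also passed with the filter at the 50th percentile, at 0.047, and with arrays centred on the median of tested genes, at 0.023. Hsd17b4, a peroxisomal enzyme that oxidises estradiol, gave -0.20 ± 0.05 with an adjusted p of 0.079. The antiestrogen binding site is a complex of sterol enzymes that binds tamoxifen with high affinity. Its genes Ebp and Dhcr7 gave -0.08 ± 0.05 and 0.0033 ± 0.07, and Ephx1, an epoxide hydrolase tied to it, 0.19 ± 0.13. Of 5 such genes, 4 were tested, and 0 had an unadjusted p under 0.05.

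**Figure D4:**
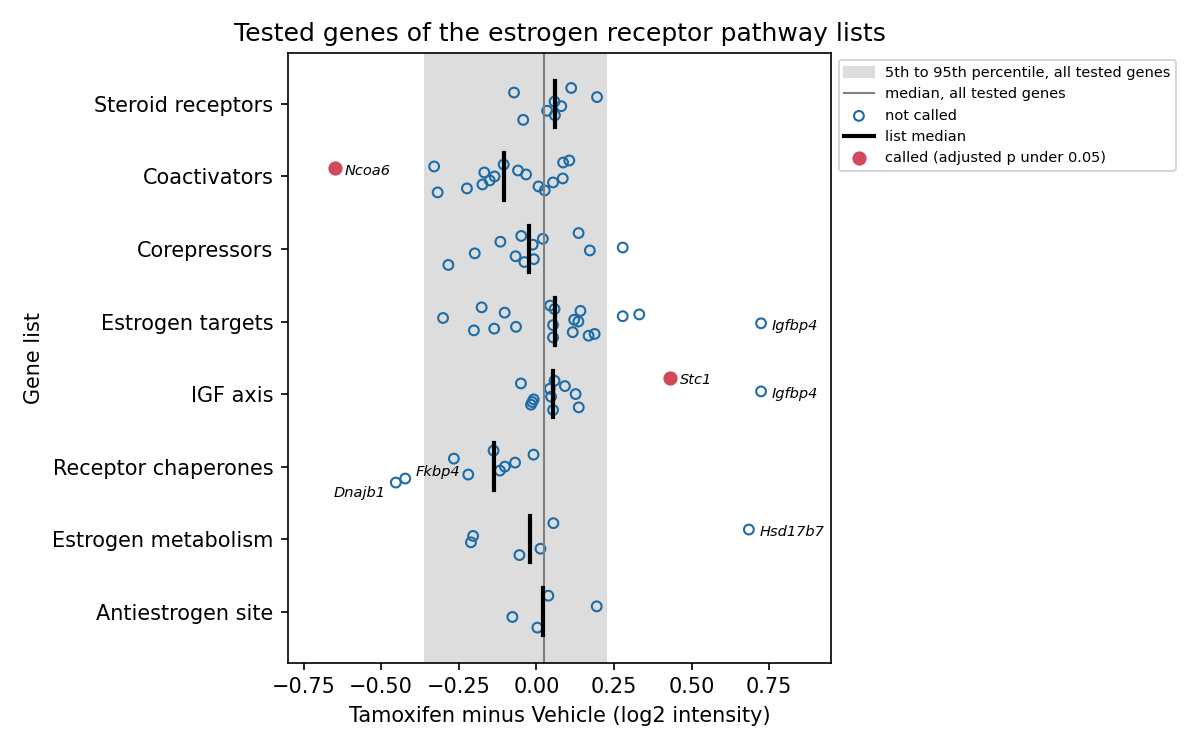
Difference between treatments (horizontal axis, log2 intensity) of the tested genes of each list (vertical axis); open points missed and filled points passed an adjusted p of 0.05, black ticks are list medians and the grey band spans the 5th to 95th percentile of all tested genes. Ncoa6 and Stc1 are the filled points, and Igfbp4, shown in both of its lists, is open at 0.72.

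Differences between the leukemias were tested apart from treatment. By limma's moderated F test of the line terms, 1 of the 8 tested members differed between lines, against 3.11% of all tested genes. Esr1 was lowest in line 14843, at 7.33 ± 0.01 log2 intensity, higher in line 14844, at 7.57 ± 0.02, and highest in line 14846, at 7.85 ± 0.09 (SD, n = 2 arrays each, 1 of each treatment). Neighbouring lines in this order lay farther apart than the spread of their arrays, and the adjusted p was 0.041.

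Greb1 ran the other way across the leukemias. It was at 9.04 ± 0.06 log2 intensity in line 14843, 8.77 ± 0.15 in line 14844 and 8.37 ± 0.23 in line 14846, with no overlap between lines. Its span of 0.66 was wider than the 0.52 of Esr1, but its arrays spread more and its limma adjusted p was 0.12. It passed when arrays were centred on the median of tested genes, at 0.039. Line means of the other tested members spanned 0.06 to 0.37, with adjusted p-values from 0.51 to 0.87. Among the other receptors, Nr3c2 also differed between lines, at an adjusted p of 0.028 by limma. Its Vehicle and Tamoxifen arrays were at 7.67 and 7.65 log2 intensity in line 14843, 7.31 and 7.38 in line 14844, and 7.98 and 8.26 in line 14846, which was highest, as for Esr1. Some contaminant markers also differed between lines: the neutrophil genes S100a8 and Ngp, highest in line 14844, had adjusted p-values of 0.0072 and 0.027 by limma, and the stromal collagen gene Col1a2, also highest there, 0.011. Their part in the line differences of Esr1 and Nr3c2 was not tested.

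Genes whose levels tracked a member over the 6 arrays were found by Pearson correlation among tested genes, which describes these arrays only. Closest to Igfbp4 were Tnfrsf8, the activation receptor CD30, at an r of 0.998, then Krtap19-4, Tmem106a, Tmem217 and Trim66, at 0.993 to 0.990. Their shapes matched but their sizes did not, since Tnfrsf8 and Tmem106a had treatment differences of 0.21 ± 0.07 and 0.22 ± 0.07 (SE) against the 0.72 of Igfbp4. Closest to Esr1 were Dnajc6, Asrgl1, Rela, Il31ra and Fabp5, at 0.996 to 0.992. Dnajc6, the clathrin uncoating cofactor auxilin, spanned far more than Esr1, from 7.19 in line 14843 through 8.67 to 10.11 in line 14846.

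Marker genes of contaminating cell types gave 0 calls between treatments among 2 tested B cell, 5 macrophage, 7 neutrophil, 4 erythroid, 6 stromal and endothelial and 3 hepatocyte genes by limma. At an unadjusted p under 0.05, where 23.8% of all tested genes lay, there was 1, the macrophage complement gene C1qb, at 0.27 ± 0.09 (SE) and an adjusted p of 0.15. The macrophage mean of 8 genes was higher by 0.20 in line 14846 and by 0.03 and 0.0028 in lines 14843 and 14844. The neutrophil mean of 8 genes differed by 0.01, 0.29 and -0.02 in lines 14843, 14844 and 14846. For the B cell mean of 5 genes the differences were 0.13, 0.02 and -0.26, the order of lines seen for Igfbp4. That order rests mainly on Cd79b, at 0.65, 0.12 and -0.91. Cd22 followed it, and the 3 B cell genes below the filter did not. The part of these cell types in the Igfbp4 result was not tested. Of the T lineage genes, Cd2 and Ptcra gave -0.19 ± 0.05 and -0.27 ± 0.08, with adjusted p-values of 0.12 for both.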

How the data were processed

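There were 6 Affymetrix arrays of 1 colour, 3 Vehicle and 3 Tamoxifen. The deposited values are intensities on a linear scale. Per the submitters' processing notes, the authors used RMA and Affymetrix Expression Console 1.1. RMA equalises arrays and so removes differences in total signal. Here log2 was taken of the 35556 probe sets, of which 21789 had 1 annotated symbol, 1621 several and 12146 none. The highest mean probe set stood for each of 19938 genes, and 13956 genes at or above the 30th percentile were tested.

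The comparison of treatments used lmFit and eBayes of limma 3.58.1 (R 4.3.3), two-sided, with Benjamini-Hochberg adjustment and a threshold of 0.05. Line was a block, because the series design gives each line both treatments. Deviations from group means correlated at 0.60 to 0.66 within lines. The fit had 2 residual degrees of freedom, to which moderation added 3.47, and the number of arrays limits precision. The steps were tested on simulated data, with 50 changed genes of each size. Of changes of 0.3 log2 units 56% were recovered, and of 0.5 log2 units 98%. There were 30 false calls.

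Members and lists were chosen with earlier results of these data known. Every member was named, with the called genes and the 2 smallest p-values of each pathway list and of the T lineage list. The 5 genes most like Igfbp4 and Esr1 were named too. Of the lists of contaminating cell types, only some of the 2 genes with the smallest p-values are given. Genes given besides these (Ncoa1, Ncoa2, Tff1, Ccnd1, Ramp3, Dnajb1, Dhcr7, Pappa, Pdgfrb, Pecam1, S100a8, Col1a2 and the Igf and Igfbp genes) were chosen after their values were seen. The result of Ngp between lines was also chosen in that way.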

Additional observations from a re-analysis of the deposited data

Results flagged for a closer look

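Members whose lines moved in opposite directions between treatments are given here with the span from the lowest to the highest line, and the difference between lines was not tested, since each line had 1 array per treatment. Greb1 spanned 0.55 log2 units, from -0.33 in line 14846 to 0.21 in line 14844. Esr2 spanned 0.26, from -0.08 in line 14844 to 0.19 in line 14843, and Esrra spanned 0.20, from -0.09 in line 14843 to 0.11 in line 14846. Esr1 spanned 0.14, from -0.12 in line 14846 to 0.02 in line 14843, and Pgr, below the filter, spanned 0.12, from -0.04 in line 14844 to 0.08 in line 14843.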

How the results depend on the processing

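The count of tested genes that passed was 870, and 792 to 974 under other filters, moderation or scaling. It was 295 with no replicate block, where no member passed, and 71 to 654 without 1 line. Lower genes made up 79.1% of calls, but 57.7% with arrays centred on the median of tested genes. In the other settings that share ran from 75.1%, without line 14846, to 95.8%, without line 14844. Of the members 0 passed, but 1, Igfbp4, passed with that centring and without line 14846, so leaving out a line gave 0 to 1. Between lines 1 member passed, 0 at the 50th percentile filter, which drops Esr1, and 2 with that centring. In the other lists 2 genes passed, 1 with no replicate block, 3 with the 50th percentile filter, with eBayes trend and robust or with arrays centred on their median over all probe sets, 4 with the median of tested genes and 0 to 7 without 1 line, Igfbp4 being counted among the 4 and the 7. Among the members and the other genes followed through these settings, leaving out 1 line turned the sign of the treatment difference for Esr2 (-0.0041 to 0.128), Esrra (-0.0030 to 0.0994), Greb1 (-0.206 to 0.0674) and Cd22 (-0.205 to 0.0482). It also turned the sign for Cd79b (-0.390 to 0.389), Epor (-0.0096 to 0.101), Dhcr7 (-0.0543 to 0.0786) and Pdgfrb (-0.159 to 0.420). Centring on tested genes turned it for Esr1, to 0.0169, Cd79b, to 0.0166, Ncoa2, to 0.0261, and Igf2, to 0.0418, and centring on all probe sets for Dhcr7, to -0.0102. With centring on tested genes, values above and below 0 went from 4 and 8 to 8 and 4 for corepressors, from 9 and 4 to 13 and 0 for the insulin-like growth factor list, and from 2 and 8 to 6 and 4 for T lineage genes. The cause was not tested. Pgr was tested only without the filter.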
